A study of Mus musculus with 6 samples.

Results

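Mme encodes neprilysin (also called CD10 or CALLA), a zinc peptidase anchored in the cell membrane that cuts small signalling peptides outside the cell. It was examined with 7 other genes of surface and secretory-pathway peptidases, Mmel1, Ece1, Ece2, Phex, Anpep, Enpep and Dpp4, in embryonic mouse spleen at E13.5. The set was chosen because Mme was among the deepest falls in the comparison reported here, where it ranked 7th of 18710 genes measured. The values of Mme that follow are therefore a description, with no test. The other 7 were chosen by what they encode, with earlier results of these data known. Each gene was read from the brightest probe set named for it alone, which gave all 8 genes a value.

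The study set 3 arrays of Tlx1 homozygous spleens beside 3 arrays of Tlx1 heterozygous spleens, all taken at E13.5. Tlx1 is a homeobox gene required for the spleen to grow in the embryo. The labels give zygosity without naming the allele; homozygous is read here as homozygous for an altered Tlx1 allele, so that the heterozygous controls also carry an altered copy, and no wild-type spleen is among the samples. Strain, sex and the number of embryos behind an array are not in the labels, which also do not say that replicates came from separate animals, so p-values measure the spread between these arrays, which may be technical. Total spleen RNA was labelled with biotin and hybridised by Affymetrix procedures. Values are GCRMA intensities on a linear scale, with the SD over the arrays of a group. Changes are differences in log2(intensity + 1) of homozygous minus heterozygous arrays, and their standard error (SE) comes from limma.

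The peptidases form 3 families. Mme, Mmel1, Ece1, Ece2 and Phex belong to the M13 zinc peptidases, where neprilysin and its close relative Mmel1 degrade peptides such as enkephalins, tachykinins and natriuretic peptides, and the endothelin-converting enzymes Ece1 and Ece2 release active endothelin from its precursor. Anpep (aminopeptidase N, CD13) and Enpep (aminopeptidase A, the BP-1 antigen of mouse B-cell precursors) are M1 aminopeptidases that take single residues from the amino end, and Enpep acts on angiotensin II. Dpp4 (CD26) is a serine peptidase that removes dipeptides and shortens the chemokine Cxcl12 and the incretin hormones. In blood-forming organs these enzymes are best known as surface markers, neprilysin on human lymphoid precursors and on stromal cells, Anpep on myeloid cells and Dpp4 on T cells and fibroblasts.

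The stretches upstream of the transcription starts of Mme, Anpep and Dpp4 are shown because these are the members that the changes turn on. They come from RefSeq on build GRCm38.p6 and hold the 250 bases before the start, written 5′ to 3′ on the gene's strand. All 8 genes were found in that table, Mme with 3 starts (the one farthest upstream is shown) and Ece1 with 4. Capitals mark TAAT, the core shared by many homeodomain sites, and AAGTG, the core of NK2-type homeodomain sites, on either strand, so that ATTA and CACTT are also capitals; where both strands of TAAT overlap they run together.
Mme, chr3:63294961-63295210, plus strand: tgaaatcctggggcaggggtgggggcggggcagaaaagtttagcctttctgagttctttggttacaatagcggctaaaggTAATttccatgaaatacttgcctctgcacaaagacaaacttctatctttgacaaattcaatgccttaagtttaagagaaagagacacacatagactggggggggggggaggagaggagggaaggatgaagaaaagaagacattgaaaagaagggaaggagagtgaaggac
Anpep, chr7:79848211-79848460, minus strand: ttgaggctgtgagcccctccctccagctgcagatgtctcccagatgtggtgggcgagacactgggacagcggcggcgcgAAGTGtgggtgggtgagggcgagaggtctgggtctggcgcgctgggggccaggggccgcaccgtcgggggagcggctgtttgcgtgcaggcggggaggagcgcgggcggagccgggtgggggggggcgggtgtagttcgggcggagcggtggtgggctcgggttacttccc
Dpp4, chr2:62412232-62412481, minus strand: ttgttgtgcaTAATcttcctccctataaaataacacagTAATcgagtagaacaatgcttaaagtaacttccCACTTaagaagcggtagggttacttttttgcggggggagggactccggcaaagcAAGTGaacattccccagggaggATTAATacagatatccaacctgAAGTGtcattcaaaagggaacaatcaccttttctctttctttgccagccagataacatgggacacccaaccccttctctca
The Mme window holds TAAT once (1 match) and AAGTG in 0 places, and the windows of the other 2 Mme starts hold neither. The Anpep window has 0 TAAT matches and 1 AAGTG match. The Dpp4 window has 4 TAAT and 3 AAGTG matches. Of 32851 windows of this length in the table, 54.9% hold TAAT and 40.7% hold AAGTG, so such matches are common. Base composition also differs, with 45.6% G and C in the Mme window shown, 72.8% in that of Anpep and 43.6% in that of Dpp4. A match is a description of the letters and does not show binding.

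Tlx1 was checked first. Its intensity was 171, 209 and 200 in homozygous spleens, against 825, 706 and 719 in heterozygous spleens, a log2 fold change of −1.95 ± 0.09 (SE) with a limma adjusted p of 1.3e-05. The groups were well separated, with the lower intensity in homozygous spleens, a direction that the labels do not state. Where this probe set lies relative to the alteration was not checked. Array medians lay between 106 and 110 intensity units, and log2 values correlated at 0.995 to 0.997 within groups and 0.989 to 0.993 between them. Of the 18710 genes tested, 3178 passed the threshold of an adjusted p below 0.05, which is 17.0%, with 10.4% higher and 6.56% lower in homozygous spleens. The groups did not overlap for 38.3% of genes. The mean log2 level of 3 Y-linked genes was 8.07 to 8.22 on the homozygous arrays, against 8.76 and 8.99 on heterozygous arrays 1 and 3 and 8.08 on heterozygous array 2. An alternative fit took this mean as a covariate, called the Y-linked covariate below. The mean partly follows genotype and there are few arrays, so a call can be lost in that fit with little change of estimate.

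**Figure D1:**
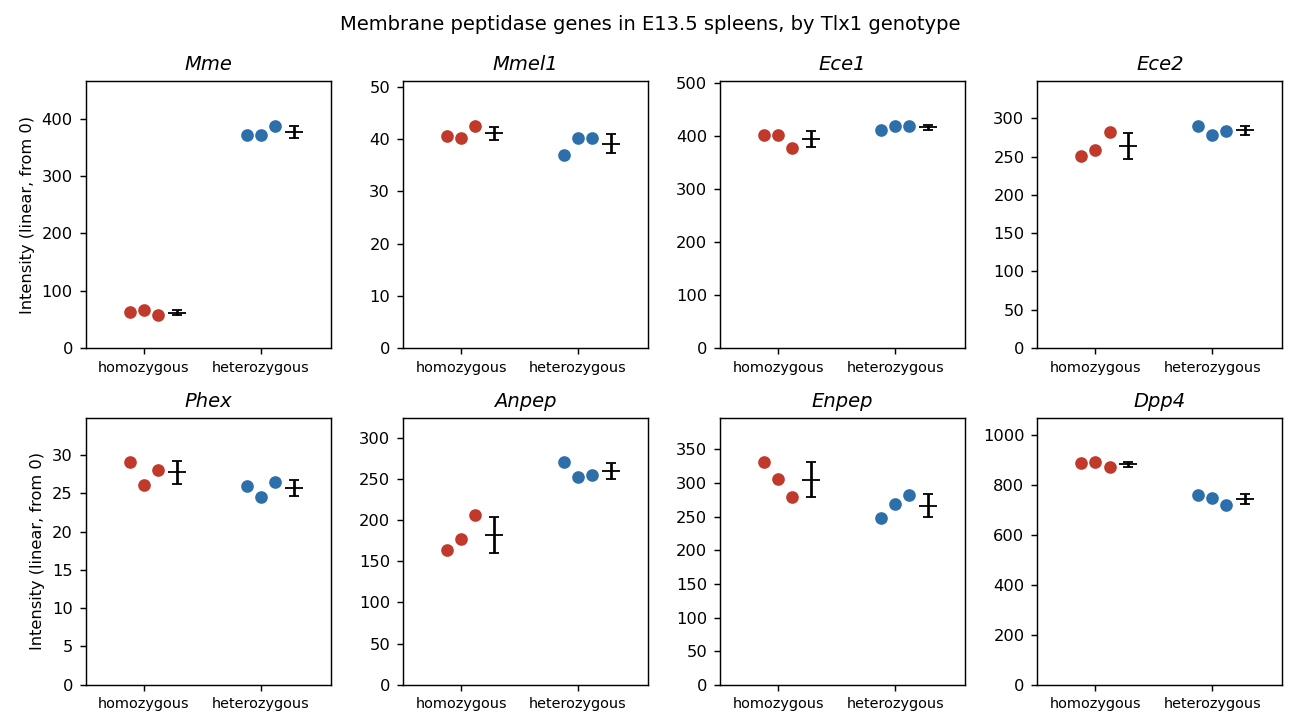
Intensity (linear axes from 0) of the 8 peptidase genes on each array, homozygous at left and heterozygous at right of every panel, with the mean and SD beside the points. Mme sits between 57.5 and 65.9 on homozygous arrays and between 371 and 388 on heterozygous arrays, while the other 7 genes differ by far less.

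Mme had an intensity of 62.2, 65.9 and 57.5 in homozygous spleens, against 371, 372 and 388 in heterozygous spleens. Every homozygous array was far below every heterozygous array, and the arrays of each group lay close together, at 61.9 ± 4.19 (SD, n = 3) in homozygous and 377 ± 9.69 (SD, n = 3) in heterozygous spleens. The log2 fold change was −2.59 ± 0.07 (SE), a measured intensity 6.02-fold lower in homozygous spleens. Fewer cells with Mme and less Mme RNA per cell cannot be told apart in spleen RNA, and the same holds for every gene below. The remaining signal lies above the filter floor of 15, and the background of this probe set was not tested, so it cannot be read as remaining transcript, and the fold is a ratio of intensities that need not equal the ratio of transcripts.

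The 4 other M13 members stayed within a narrow range and none passed the threshold. Ece1, which releases endothelin at the cell surface, had an intensity of 402, 402 and 376 in homozygous spleens, against 410, 419 and 418 in heterozygous spleens. All homozygous values were slightly lower and the groups did not overlap, yet the log2 fold change was only −0.08 ± 0.06 (SE; limma adjusted p = 0.375), with a 95% interval from −0.22 to 0.06. Mmel1, the closest relative of neprilysin, was dim at 40.5, 40.2 and 42.6 in homozygous spleens, against 37.0, 40.3 and 40.2 in heterozygous spleens. Its groups overlapped and its log2 fold change was 0.07 (95% interval −0.08 to 0.21; limma adjusted p = 0.483), a sign that turned after cyclic loess (−0.038). Phex, which acts in phosphate balance and is mutated in a human form of rickets, was dimmer still at 29.0, 26.1 and 28.1 in homozygous spleens, against 25.9, 24.5 and 26.5 in heterozygous spleens. Its groups overlapped too, with a log2 fold change of 0.11 (95% interval −0.04 to 0.26; limma adjusted p = 0.286).

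Ece2, an endothelin-converting enzyme of the secretory pathway, had 2 probe sets, and the brighter one that stands for it here is uncertain. The RefSeq transcripts annotated to that probe set belong to the neighbouring methyltransferase gene Eef1akmt4 and to readthrough transcripts of both genes, whereas those of the dimmer probe set include the transcripts of Ece2 itself. The brighter set gave 251, 259 and 282 in homozygous spleens, against 291, 278 and 284 in heterozygous spleens, with a log2 fold change of −0.11 ± 0.07 (SE; limma adjusted p = 0.289). The dimmer set gave 74.2, 67.6 and 71.2 in homozygous spleens, against 76.5, 71.0 and 66.3 in heterozygous spleens. Its estimate was close to 0 (limma adjusted p = 0.976), and the groups overlapped for both probe sets.

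Among the aminopeptidases, Anpep fell and Enpep lay the other way without passing. Anpep had an intensity of 164, 176 and 206 in homozygous spleens, against 270, 253 and 254 in heterozygous spleens. The groups did not overlap, although homozygous array 3 stood above the other two of its group. The means were 182 ± 21.6 (SD, n = 3) in homozygous and 259 ± 9.64 (SD, n = 3) in heterozygous spleens. The log2 fold change was −0.51 ± 0.09 (SE; limma adjusted p = 0.00802), a level 1.43-fold lower, and the call held in each of 6 refits without 1 array (−0.61 to −0.44) and in 12 other settings. Enpep had an intensity of 331, 306 and 279 in homozygous spleens, against 248, 269 and 283 in heterozygous spleens. The lowest homozygous value lay below the highest heterozygous one, and the log2 fold change of 0.19 ± 0.08 (SE) had an unadjusted p of 0.0451 and an adjusted p of 0.138 in limma. It passed with array weights (0.25, limma adjusted p = 0.0488) and in no other setting run.

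Dpp4 rose slightly. Its intensity was 887, 891 and 873 in homozygous spleens, against 762, 748 and 722 in heterozygous spleens. The groups were separated and tight, at 884 ± 9.8 (SD, n = 3) in homozygous and 744 ± 20.2 (SD, n = 3) in heterozygous spleens. The log2 fold change was 0.25 ± 0.06 (SE; limma adjusted p = 0.0237), a level 1.19-fold higher. This call was fragile. With the Y-linked covariate the estimate was 0.23 with a larger SE of 0.09, and the limma adjusted p was 0.125. It was 0.0768 without homozygous replicate 1, 0.0577 without heterozygous replicate 1, 0.0767 without heterozygous replicate 2 and 0.0653 without heterozygous replicate 3, with estimates between 0.23 and 0.27.

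Of the 7 members other than Mme, 1 rose and 1 fell, and 5 did not pass, beside 17.0% of all genes that passed (10.4% higher and 6.56% lower). Their median log2 fold change was 0.07, beside 0.02 over all genes tested. Groups did not overlap for 3 of these 7 genes (Ece1, Anpep and Dpp4), where the share over all genes was 38.3%. Of the 5 M13 genes in the set, Mme was low and the other 4 did not pass, and the aminopeptidases Anpep and Enpep had opposite signs.

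**Figure D2:**
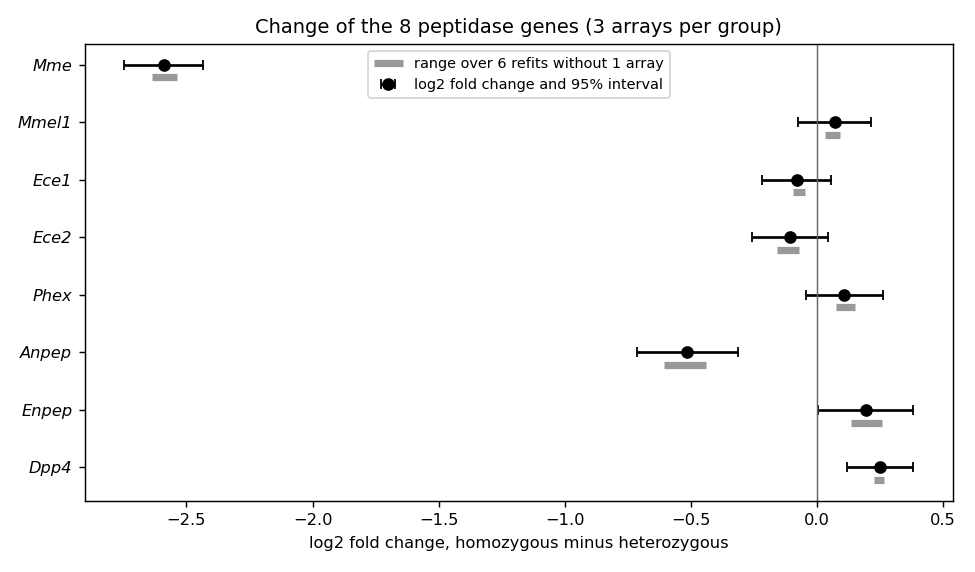
Change of each peptidase gene as log2 fold change, homozygous minus heterozygous, with its 95% interval (points and bars, 3 arrays per group) and the range over 6 refits without 1 array (grey). Mme lies at −2.59, Anpep at −0.51, and the other 6 genes between −0.11 and 0.25.

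The genes with a profile most like that of Mme were sought by the root mean square distance between log2 values centred on each gene's mean, over the 6 arrays and all genes tested. This is a description, since genes near Mme must share its fall. Frzb, a secreted Wnt antagonist, was nearest, at a distance of 0.11 log2 units, where the median distance over all other genes was 1.31. Frzb lay between 83.9 and 87.3 in homozygous spleens and between 566 and 592 in heterozygous spleens. The iron exporter gene Slc40a1 (0.13), the Popeye domain genes Bves (0.15) and Popdc3 (0.20) and the paralogs Clca3a1 (0.22) and Clca3a2 (0.27) followed. The Clca3 paralogs are near-identical in sequence, so their separate values are uncertain. Correlations of these 6 genes with Mme over the 6 arrays ran from 0.993 to 0.998 and rest on the gap between the groups. In the ranking by fall, Mme lay between Bves (−2.62) and Slc40a1 (−2.36).

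**Figure D3:**
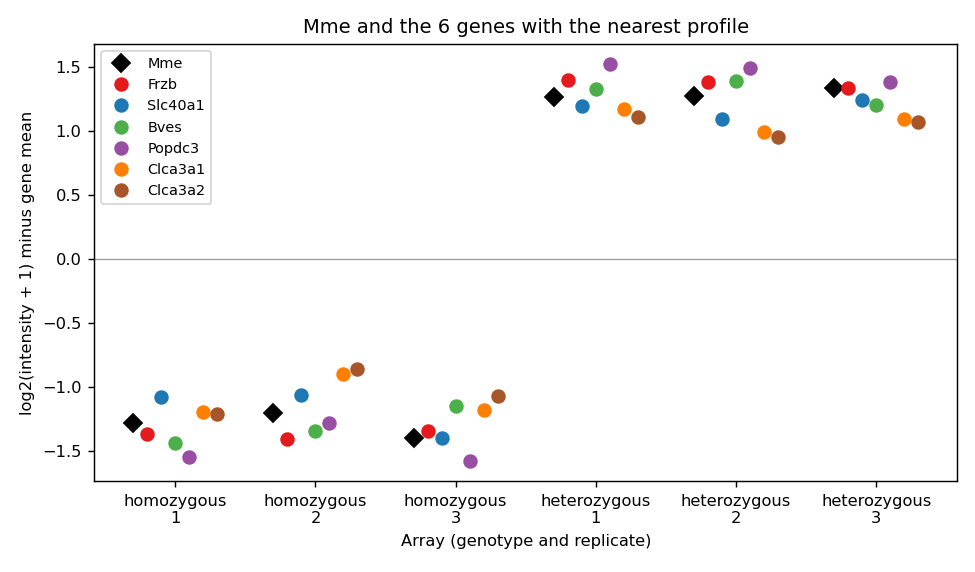
Log2(intensity + 1) of Mme (black diamonds) and the 6 genes nearest to it, each minus its own mean over the 6 arrays, by array. On each homozygous array all 7 genes lie below 0, and on each heterozygous array all lie above 0.

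Neighbours in the gene order were looked up in RefSeq after the members' values were known, the closest 2 protein-coding genes on each side. Beside the counts that follow, 17.0% of all genes passed, 10.4% higher and 6.56% lower. None of the measured neighbours of Mmel1 (4), Ece1 (4), Ece2 (2) and Phex (2) passed. Of the 4 neighbours of Mme on chromosome 3, 3 were measured and none passed. These were Dhx36, an RNA helicase gene (−0.20, limma adjusted p = 0.12), the orphan receptor gene Gpr149 (0.01, adjusted p = 0.94) and the phospholipase gene Plch1 (0.18, adjusted p = 0.106). Around Anpep on chromosome 7, 1 of 4 passed, the somite factor gene Mesp2 (0.34, limma adjusted p = 0.0395), which lay opposite to Anpep. Around Enpep, also on chromosome 3, 1 of 3 measured neighbours passed, the fatty acid elongase gene Elovl6, which rose (0.40, limma adjusted p = 0.00724). On chromosome 2, 1 of the 4 measured neighbours of Dpp4 passed. Dpp4 is followed there by the glucagon gene Gcg and by Fap, which encodes a related serine peptidase. Fap was at 214 ± 28.5 in homozygous and 165 ± 12.6 in heterozygous spleens (SD, n = 3 each), a log2 fold change of 0.37 ± 0.10 (SE; limma adjusted p = 0.044). That call was lost with the Y-linked covariate (adjusted p = 0.159) and in every refit without 1 array except the one without homozygous replicate 3 (0.28 to 0.47 over all settings). Gcg, an endocrine pancreas gene, varied widely, at 3751, 761 and 2728 in homozygous spleens, against 98.0, 659 and 1032 in heterozygous spleens. Its groups overlapped and it did not pass (2.28 ± 0.85 SE, limma adjusted p = 0.0986).

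Other peptidases of the same families showed single changes. Ecel1, an M13 member of neurons, rose, at 264, 251 and 283 in homozygous spleens, against 184, 214 and 206 in heterozygous spleens (0.40 ± 0.08 SE, limma adjusted p = 0.013, but 0.0862 with the Y-linked covariate). Kel, the red cell M13 member, named after its values were seen, had a log2 fold change of −0.46 without passing (limma adjusted p = 0.0776), and passed after cyclic loess (−0.56, adjusted p = 0.0457), with array weights, with trend and robust fitting, with the replicate block and without heterozygous replicate 1. Of 8 further M1 aminopeptidase genes 2 fell and none rose, beside 10.4% higher and 6.56% lower over all genes, with a median of −0.14 beside 0.02 over all genes. Over the settings 0 to 3 fell, with 0 under the Y-linked covariate. Lta4h, which makes leukotriene B4, was at 599, 746 and 609 in homozygous spleens, against 914, 913 and 990 in heterozygous spleens (−0.53 ± 0.09 SE, limma adjusted p = 0.00831, and 0.0505 with the Y-linked covariate). Rnpep fell by 0.28, a call lost after quantile normalization, cyclic loess, with the Y-linked covariate and without homozygous replicate 1 or 3 or heterozygous replicate 2 or 3 (−0.33 to −0.21 over all settings). Of 8 genes related to Dpp4 or cutting at proline, 2 rose and none fell, beside 10.4% higher and 6.56% lower over all genes. Over the settings 0 to 2 were higher and 0 or 1 lower. The rises were Fap and Dpp6 (0.32), which lacks peptidase activity. The call of Dpp6 was lost after quantile normalization and cyclic loess, with the mean of its probe sets, and without homozygous replicate 1 or 3 or heterozygous replicate 2 or 3 (0.20 to 0.46 over all settings).

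Among 19 measured genes of other surface and peptide-cutting enzymes, 4 rose and 2 fell, beside 10.4% higher and 6.56% lower over all genes, with a median of 0.08. After cyclic loess 2 rose and 2 fell and the median turned sign (−0.019), and over the settings 2 to 5 rose and 1 or 2 fell. The gamma-glutamyl transferase gene Ggt5 was at 82.2, 88.6 and 84.4 in homozygous spleens, against 116, 117 and 109 in heterozygous spleens, and fell by 0.42 (limma adjusted p = 0.00458). The carboxypeptidase gene Cpm was at 97.9, 88.4 and 99.3 in homozygous spleens, against 69.9, 74.2 and 65.8 in heterozygous spleens, and rose by 0.44 (limma adjusted p = 0.00743, and 0.0571 with the Y-linked covariate). Cpz, a secreted carboxypeptidase gene, rose by 0.38 (limma adjusted p = 0.00818). The dipeptidase gene Dpep1 rose by 0.56 at a dim 49.8 ± 10.7 in homozygous and 33.2 ± 4.47 in heterozygous spleens (SD, n = 3 each), and lost its call after quantile normalization, cyclic loess and without homozygous replicate 1 or 3 or heterozygous replicate 1 or 2 (0.40 to 0.73 over all settings). The converting enzyme gene Ace did not pass (0.14, limma adjusted p = 0.429).

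Genes for peptides that these enzymes make or destroy, and for their receptors, changed in single members. In the endothelin system 2 of 4 genes rose and 1 fell, beside 10.4% higher and 6.56% lower over all genes. Over the settings 1 to 3 were higher and 0 or 1 lower. The ligand Edn1 was at 138, 195 and 165 in homozygous spleens, against 113, 114 and 101 in heterozygous spleens (0.59 ± 0.12 SE, limma adjusted p = 0.0142, and 0.0862 with the Y-linked covariate). Its receptor Ednrb was at 508, 571 and 529 in homozygous spleens, against 393, 346 and 387 in heterozygous spleens (0.51 ± 0.08 SE, limma adjusted p = 0.00443), a rise that held in all settings run. The ligand Edn3 fell by 0.27 (limma adjusted p = 0.0331), and lost that call after quantile normalization and cyclic loess, with the Y-linked covariate and in every refit without 1 array (−0.31 to −0.20 over all settings).

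In the natriuretic peptide system 1 of 8 genes rose and none fell, beside 10.4% higher and 6.56% lower over all genes. Over the settings 1 or 2 were higher. Npr3, the clearance receptor that removes natriuretic peptides from the surroundings, was at 566, 640 and 586 in homozygous spleens, against 318, 297 and 341 in heterozygous spleens. All homozygous arrays lay far above the heterozygous ones, and the log2 fold change of 0.91 ± 0.08 (SE; limma adjusted p = 0.000321) held in all settings run. The peptide genes Nppa (−0.13) and Nppb (−0.02) and the signalling receptors Npr1 (−0.05) and Npr2 (−0.10) did not pass.

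Of 11 tachykinin and opioid genes 3 rose (1 to 4 over the settings) and none fell, with a median of 0.24 (0.13 after cyclic loess). Over all genes 10.4% were higher and 6.56% lower, with a median of 0.02. The tachykinin gene Tac2 rose by 0.56 (limma adjusted p = 0.0125, and 0.0823 with the Y-linked covariate) and the delta opioid receptor gene Oprd1 by 0.46 (limma adjusted p = 0.0103). Tac4 rose by 0.37, a call lost after cyclic loess, with the Y-linked covariate and in every refit without 1 array except the one without homozygous replicate 2 (0.25 to 0.47 over all settings). The enkephalin precursor gene Penk, whose product neprilysin degrades, was at 898 ± 86.8 in homozygous and 872 ± 42.7 in heterozygous spleens (SD, n = 3 each) and did not pass (0.04, limma adjusted p = 0.766). Of 8 angiotensin and kinin genes 2 rose and none fell, beside 10.4% higher and 6.56% lower over all genes. Over the settings 0 to 4 rose, and the median was 0.18. The angiotensin receptor gene Agtr2 rose by 0.39 and lost its call with the Y-linked covariate and without homozygous replicate 1 or 3 or heterozygous replicate 2 or 3 (0.32 to 0.46 over all settings). The bradykinin receptor gene Bdkrb2 rose by 0.23, a call lost in every refit without 1 array and in 7 of 12 other settings (0.14 to 0.27). None of 7 adrenomedullin and calcitonin gene-related peptide genes passed in limma, 4 had an unadjusted p below 0.05, with the receptor subunit genes Ramp1 (0.31, limma adjusted p = 0.0575) and Calcrl (−0.24, adjusted p = 0.078) nearest the threshold. Ramp1 passed with the log2 floor at 6, an added constant of 16, array weights, the replicate block and without heterozygous replicate 3. Calcrl passed with trend and robust fitting, array weights and without homozygous replicate 2.

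Of 12 genes for substrates, receptors and partners of Dpp4, 4 rose and 1 fell, beside 10.4% higher and 6.56% lower over all genes, with a median of 0.12. After cyclic loess 2 rose and 2 fell (median 0.061), and with the log2 floor at 6 the median of the 8 genes left was −0.052. Cxcl12, a chemokine that retains blood progenitors and is cut by Dpp4, was at 1096, 1193 and 1021 in homozygous spleens, against 716, 820 and 791 in heterozygous spleens (0.51 ± 0.08 SE, limma adjusted p = 0.00605). The groups were separated and the call held in all settings run, while its receptor gene Cxcr4 did not pass (−0.20, limma adjusted p = 0.103). Npy, a peptide also shortened by Dpp4, was at 130, 129 and 135 in homozygous spleens, against 228, 170 and 185 in heterozygous spleens (−0.55 ± 0.10 SE, limma adjusted p = 0.0104, and 0.0707 with the Y-linked covariate). The incretin receptor gene Gipr rose by 0.51 (limma adjusted p = 0.0103). Its ligand Gip rose by 0.38 and lost that call after cyclic loess, with the Y-linked covariate and without homozygous replicate 1 or 3 or heterozygous replicate 1 or 2 (0.27 to 0.48 over all settings). Of 6 genes of phosphate balance and bone matrix around Phex, 2 rose (0 to 2 over the settings) and none fell. Over all genes 10.4% were higher and 6.56% lower. Fgf23, the phosphate hormone, rose by 0.44 and lost its call without homozygous replicate 1 or 3 or heterozygous replicate 1 or 2 (0.35 to 0.54 over all settings). Kl, its co-receptor, rose by 0.45 at a dim 43.7 ± 7.68 in homozygous and 31.3 ± 0.37 in heterozygous spleens (SD, n = 3 each), and lost its call after cyclic loess, with the Y-linked covariate and in every refit without 1 array except the one without homozygous replicate 2 (0.33 to 0.60 over all settings).

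**Figure D4:**
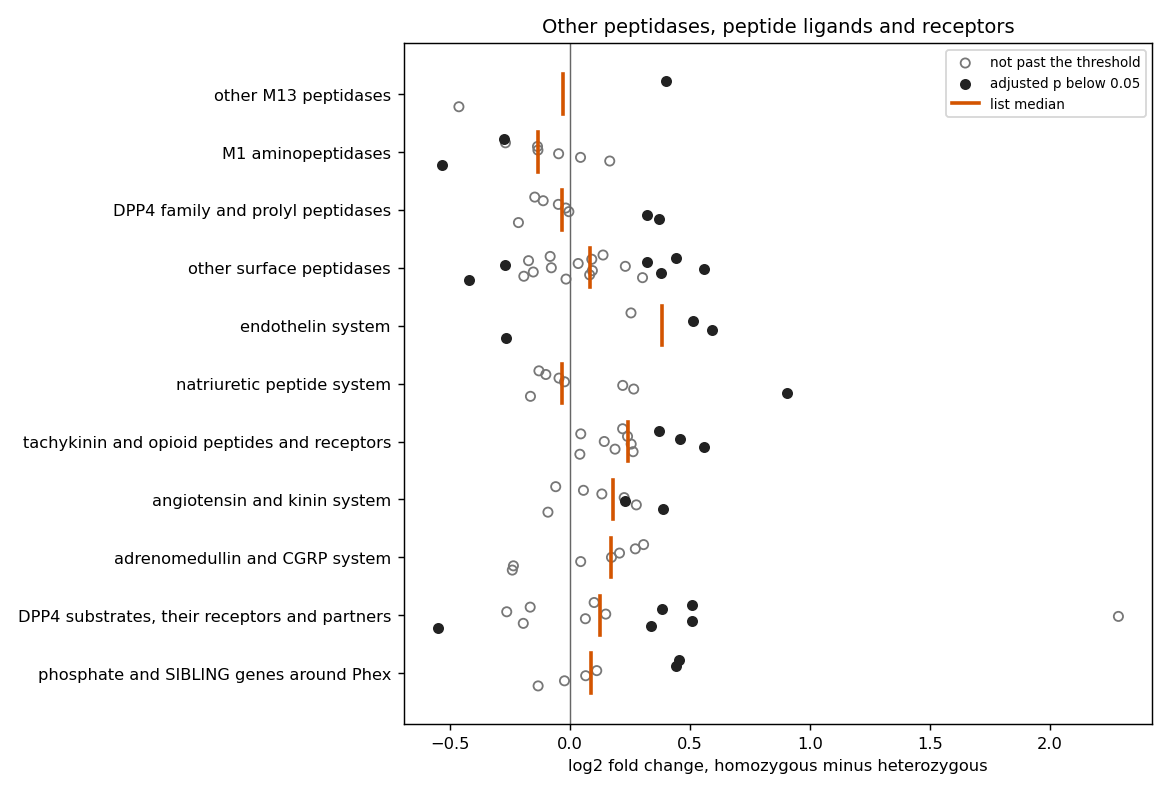
Log2 fold change, homozygous minus heterozygous, of each measured gene in 11 lists of other peptidases, peptide ligands and receptors. Filled points passed the limma threshold, open points did not, and the orange lines are list medians; Npr3 at 0.91 is the highest filled point, and the open point at 2.28 is Gcg.

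Cell type markers were read on the same arrays, because several of these peptidases mark cell types. Beside each count of markers that rose or fell stand the shares over all genes, 10.4% higher and 6.56% lower. Of 10 endothelial markers all 10 fell, with a median of −0.45, and their summed intensity was 5587 to 5897 in homozygous spleens, against 7950 to 8290 in heterozygous spleens. The count was 6 with the Y-linked covariate and without homozygous replicate 1, and 7 without heterozygous replicate 1 or 2. Ece1, an enzyme of endothelium among other cells, lay at −0.08 in the same arrays, and its link to these markers was not tested. Among 8 pericyte markers 2 rose and 1 fell, and their sum was 5563 to 5816 in homozygous spleens, against 5045 to 5369 in heterozygous spleens. The channel subunit genes Kcnj8 (0.53) and Abcc9 (0.56) were the rises and Pdgfrb (−0.24) the fall, the last lost after cyclic loess, with the replicate number as a block, with the Y-linked covariate and in every refit without 1 array but that without homozygous replicate 2. Enpep, which pericytes carry, was at 0.19.

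Markers of B-cell precursors, on which Enpep is found in mice, were dim in both groups. Their sum over 8 measured genes was 412 to 456 in homozygous spleens, against 386 to 403 in heterozygous spleens. A link of this sum to Mme or Enpep was not tested. Only Cd79a passed, as a fall of 0.22 at an intensity near 20 that was lost in every refit without 1 array. None of 10 macrophage and myeloid markers passed in limma, 2 had an unadjusted p below 0.05, with sums of 1986 to 2110 in homozygous spleens, against 2011 to 2093 in heterozygous spleens. Anpep fell in the same arrays, and the part of myeloid cells in that fall was not tested. Mesothelial markers summed to 9123 to 9312 in homozygous spleens, against 8949 to 9705 in heterozygous spleens. Among 8 there was 1 rise (Msln) and 1 fall (Wt1), beside 10.4% higher and 6.56% lower over all genes. The fall of Wt1 was lost with the Y-linked covariate and without homozygous replicate 1.

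Markers of T cells, which carry Dpp4, were dim, with a sum over 5 genes of 259 to 290 in homozygous spleens, against 202 to 227 in heterozygous spleens. Of these 5 genes 2 rose (0 to 3 over 18 settings). The shares over all genes, for this count and those that follow, were 10.4% higher and 6.56% lower. Epithelial markers summed to 2009 to 2317 in homozygous spleens, against 1532 to 2075 in heterozygous spleens (2 of 8 rose, 0 to 5 over the settings). Exocrine pancreas markers summed to 2004 to 2267 in homozygous spleens, against 586 to 1224 in heterozygous spleens (3 of 6 rose, 1 to 5 over the settings). Most of that sum was Cpa1, at 1783, 1610 and 1600 in homozygous spleens, against 861, 307 and 436 in heterozygous spleens. Cpa1 kept its call in all 6 refits without 1 array and lost it with trend and robust fitting. The other rises, Cela1 and Rbpjl, kept their calls in 1 and 2 of these 6 refits. Markers of kidney tubule and gut brush border, where Mme, Anpep, Enpep and Dpp4 are abundant in the adult, were dim apart from Lrp2 (144 to 169). They summed to 385 to 409 in homozygous spleens, against 329 to 342 in heterozygous spleens, with 2 of 7 higher (0 to 4 over the settings) and none lower. With the log2 floor at 6 only Lrp2 was left, and it did not pass. Liver markers overlapped, at 904 to 2043 in homozygous spleens and 1127 to 1716 in heterozygous spleens, and none of 6 passed in limma, 1 with an unadjusted p below 0.05. Of 7 erythroid markers 5 fell (3 to 7 over the settings), with sums of 1733 to 1978 in homozygous spleens, against 2712 to 3091 in heterozygous spleens. No array value is 0 in this table, so no marker can be called absent, and the part of any of these cell types in the changes of Mme, Anpep and Dpp4 was not tested.

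The labels name spleen as the tissue, and markers of splenic mesenchyme had intensities of at least 171 on all 6 arrays, with their background unknown. Of 5 measured genes 4 fell (3 or 4 over the settings), among them Tlx1 itself, altered by design. Over all genes 6.56% were lower and 10.4% higher. Barx1, the only one of the 5 with the opposite sign, was at 1482, 1397 and 1582 in homozygous spleens, against 1136, 1212 and 1347 in heterozygous spleens. Its groups did not overlap, and its log2 fold change of 0.27 (0.22 to 0.34 over the settings) missed the threshold (limma adjusted p = 0.0517). Barx1 passed with the log2 floor at 6, an added constant of 16, quantile normalization, cyclic loess (0.31, limma adjusted p = 0.0397) and trend and robust fitting. It also passed with array weights, the replicate block and without homozygous replicate 2 or heterozygous replicate 3. Nkx2-5 was at 243 ± 52.8 in homozygous and 614 ± 57.4 in heterozygous spleens, and Nkx3-2 at 236 ± 13.1 in homozygous and 555 ± 8.19 in heterozygous spleens (SD, n = 3 each). The mesenchymal factor gene Tcf21 fell by 0.26, a call lost after cyclic loess, with the replicate block, with the Y-linked covariate and in every refit without 1 array but that without homozygous replicate 3.

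**Figure D5:**
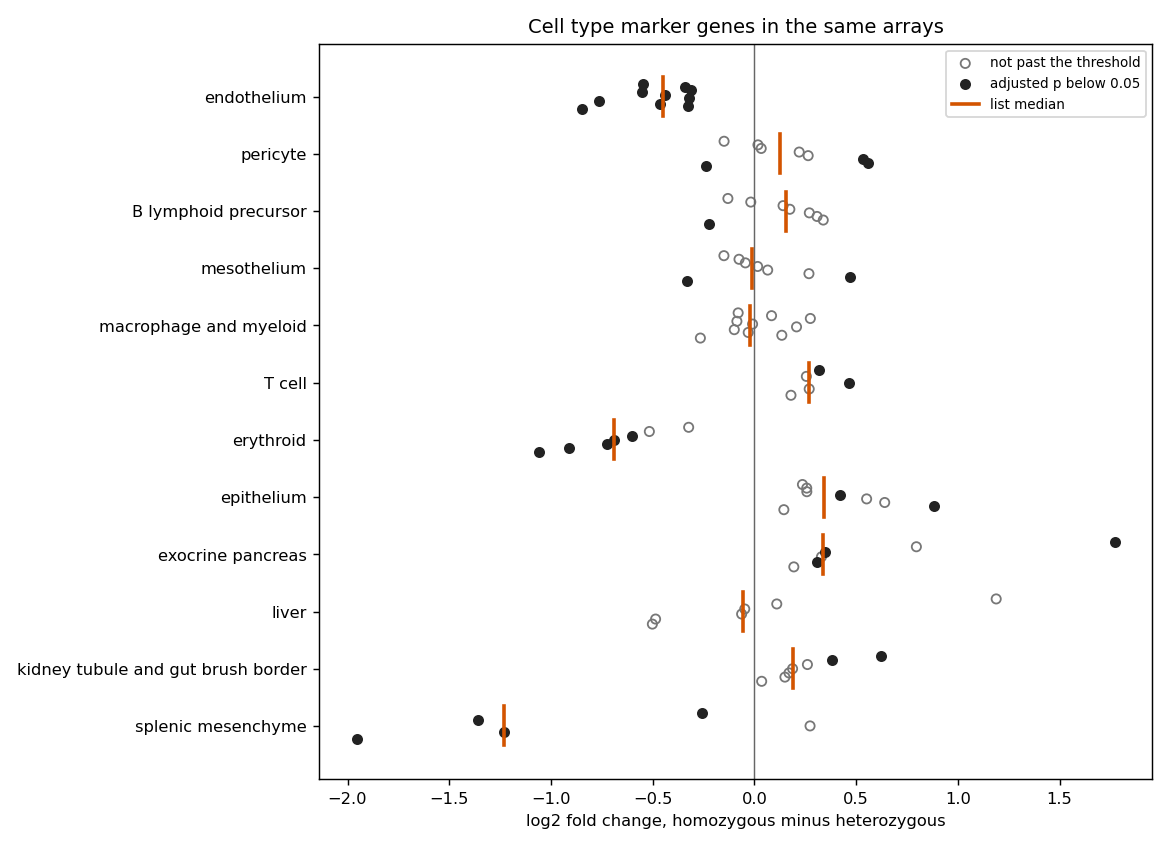
Log2 fold change, homozygous minus heterozygous, of cell type marker genes, drawn as in the plot of peptide lists. Endothelial and erythroid markers lie below 0, epithelial, pancreatic and T cell markers above 0, and macrophage and mesothelial markers on both sides.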

How the data were processed

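Total spleen RNA was measured on 6 arrays by Affymetrix procedures, 3 arrays per genotype, grouped by the sample titles. The submitters' processing notes name GCRMA, a method that adjusts background, normalizes arrays and summarises probes, as the source of the deposited intensity values. Version and genome build: not given in the sources used here. Of 35512 probe sets, 21789 carried 1 gene symbol in the platform's annotation. Those with a log2(intensity + 1) of at least 4 on 3 or more of the 6 arrays were kept, and the brightest by mean stood for each gene, which left 18710 genes. Adding 1 makes changes of dim genes look smaller. Homozygous and heterozygous arrays were compared over all genes by limma 3.58.1 (R 4.3.3; lmFit, then eBayes without trend), two-sided, with Benjamini-Hochberg adjustment and a threshold of 0.05. The fit was also run on simulated data with independent noise and no shifts between arrays. That setting is simpler than these arrays, so the run does not give their error rate. A log2 scale had been foreseen as one possibility; the values are linear, so log2(intensity + 1) was used.

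The members and 23 gene lists were chosen with earlier results of these data known. Genes named are the members, Tlx1, the 6 nearest profiles to Mme, and from each list of peptidases or peptides up to 4 called genes ranked by size of change (with no call, the 2 lowest in p); others, markers and neighbours among them, were picked after their values were seen. Counts of called genes in a list are given without a test of the list. Precision is limited by having 3 arrays a group. Alternatives covered the filter, the added constant, scaling, the fit, covariates, the choice of probe set and leaving out each array; they were not run for gene-order neighbours outside the lists.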

Additional observations from a re-analysis of the deposited data

How the results depend on the processing

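The falls of Mme (−2.63 to −2.54 over refits without 1 array, −2.61 to −2.34 in 12 other settings) and Anpep (−0.61 to −0.44, and −0.57 to −0.46) kept their direction, and Anpep its call, in all of them. Dpp4 lost its call under the Y-linked covariate (0.23, adjusted p = 0.125) and in 4 of 6 refits without 1 array (0.23 to 0.27 over the 6). Enpep passed with array weights (0.25, adjusted p = 0.0488). Mmel1 turned sign after cyclic loess (−0.038, adjusted p = 0.741), and the cause was not tested. Ece1, Ece2 and Phex passed in no setting, and the other Ece2 probe set, a choice made after seeing the data, also did not pass. Over all genes, the number called was 3178 (4569 with array weights), 1647 with the Y-linked covariate, and 1198 to 3563 in refits without 1 array, which hold fewer samples. It was 1198 without homozygous replicate 1, 1822 without homozygous replicate 3, 1689 without heterozygous replicate 1 and 1376 without heterozygous replicate 2. The share of calls that were higher was 61.4%, 67.3% after quantile normalization, 56.4% after centring on medians and 54.3% after cyclic loess. The labels do not say whether the replicate numbers pair the arrays. Same-numbered arrays deviated from their group means with correlations of −0.01, 0.04 and −0.11, and 1 of 3 homozygous arrays correlated best with its own number. With so few arrays these values show no clear pairing and cannot exclude one. With the replicate block 3163 genes were called (2091 higher, 1072 lower), and no peptidase of the 8 changed its call. Mmel1 and Phex had no value with the log2 floor at 6. Signal over background was not known per probe set, which limits what can be said of the dim genes Mmel1 and Phex.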
